A study of Homo sapiens with 24 samples.

Results

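The genes described here are 10 enzymes that make, lengthen, desaturate and activate fatty acids: ACLY, ACSS2, ACACA, FASN, ELOVL6, SCD, FADS1, FADS2, ACSL1 and ACSL3. They were chosen by name from the pathway, with earlier results of these data known. All 10 were found among the 23368 genes of the deposited table. Their mRNA was read from 24 RNA-seq libraries of AGS, an established human gastric adenocarcinoma line of wild-type genotype per the labels, harvested 24 h after treatment. The 6 groups of 4 were a control without inhibitor, PI103 at 0.7 µM, PD0325901 at 0.035 µM, (5Z)-7-oxozeaenol (oxozeaenol below) at 0.5 µM, and the pairs PI103+oxozeaenol and PI103+PD0325901. Both pairs held each agent at 50% of its single concentration. PD0325901 is used against the kinase MEK, oxozeaenol against TAK1, and PI103 against PI3 kinases and mTOR. Whether these agents also blocked other kinases here was not measured. No vehicle is mentioned for the control, all groups come from a single cell line, and nothing in the labels says that replicates came from separate cultures, so p-values measure only the spread between these samples. The series title places the data in a study of drug-induced metabolic change, so the comparisons ask how each inhibitor moved the lipogenic enzymes and how each pair compared with its parts.

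Cells build fatty acids from acetyl-CoA in the cytosol. ACLY makes that acetyl-CoA from citrate and ACSS2 makes it from acetate, ACACA carboxylates it to malonyl-CoA, and FASN condenses both into palmitate. ELOVL6 lengthens palmitate, SCD puts the first double bond into saturated chains, FADS1 and FADS2 desaturate polyunsaturated chains, and ACSL1 and ACSL3 attach coenzyme A to long chains so that they can enter lipids or be oxidised. Transcription of many of these genes is driven by the sterol regulatory element binding proteins SREBF1 and SREBF2, and PI3 kinase and mTOR signalling is known to raise their activity.

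On GRCh38, the build in the submitters' processing notes, GENCODE 29 places 3 members on chromosome 17: ACLY at chr17:41866908-41930542, ACACA at chr17:37084988-37406818 and FASN at chr17:82078333-82098332. ELOVL6 lies at chr4:110045846-110199199 and ACSL1 at chr4:184755595-184826818. SCD lies at chr10:100347124-100364834, ACSS2 at chr20:34872146-34927962 and ACSL3 at chr2:222860934-222944639. FADS1 at chr11:61799625-61829318 and FADS2 at chr11:61792980-61867354 overlap on opposite strands and share 490 exonic bases, which is 4.79% of the FADS1 exons and 4.44% of the FADS2 exons. FADS2 also shares 49 exonic bases with FEN1 on its own strand. Small antisense overlaps cover 2.99% of the ACLY exons and 1.41% of the ACSL3 exons. Whether the counting used strand is not given in the sources used here, so reads in these stretches are of uncertain origin.

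RefSeq promoter windows, from 250 bases before to 50 bases after each start on GRCh38.p14, were matched for 9 of the 10 members, all but FASN. Stretches from 3 of them are printed because SCD and ACLY had the most alike levels of any pair of members across the libraries, while ELOVL6 moved apart from both. Each is the longest stretch before the start that lies outside every exon annotated in GENCODE 29, written 5′ to 3′ on the gene's strand. Capitals mark matches, on either strand, to CCAAT (the box bound by NF-Y) or GGGCGG (the box bound by Sp1), and the searched motifs do not overlap each other. The SCD stretch is chr10:100346983-100347123 on the plus strand, the ACLY stretch is chr17:41919023-41919272 on the minus strand, and the ELOVL6 stretch is chr4:110198677-110198841 on the minus strand.
SCD: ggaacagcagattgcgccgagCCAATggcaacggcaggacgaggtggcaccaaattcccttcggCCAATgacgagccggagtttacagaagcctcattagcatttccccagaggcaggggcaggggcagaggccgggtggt
ACLY: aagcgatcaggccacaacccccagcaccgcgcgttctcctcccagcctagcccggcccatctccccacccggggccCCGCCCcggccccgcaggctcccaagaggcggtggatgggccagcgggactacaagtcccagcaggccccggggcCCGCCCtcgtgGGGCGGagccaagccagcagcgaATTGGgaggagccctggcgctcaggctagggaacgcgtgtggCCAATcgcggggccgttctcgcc
ELOVL6: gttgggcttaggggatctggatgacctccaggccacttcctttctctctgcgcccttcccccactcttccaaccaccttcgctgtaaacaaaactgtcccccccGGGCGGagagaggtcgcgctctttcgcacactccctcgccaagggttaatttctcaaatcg
SCD and ACLY each held 2 CCAAT boxes, and ELOVL6 held none. These genes were picked by their levels, and FADS2, whose level correlated negatively with SCD and ACLY, also held CCAAT. A link between CCAAT and the levels was not tested. At least 1 window of 7 of the 9 matched members held CCAAT, against 39.7% of the 27305 genes with a window. GGGCGG was present in 9 of 9, against 48.3% of genes. Such shares per gene favour genes with several windows: the 9 members had 18, and the 27305 genes had 35116. Per window, CCAAT was in 34.6% and GGGCGG in 45% of all windows. ACACA, ACSL1 and FADS2 each had a window without CCAAT and a window without GGGCGG. The shares per gene are therefore no measure of enrichment. The next 2 motifs are given per window. The sterol regulatory element core TCACNCCAC was found in 1 of the 18 windows of members, an alternative start of ACSL1, and in 1.13% of all 35116 windows. The E-box CACGTG was in none of the members' windows and in 7.26% of all windows. These are matches of letters in a short window and say nothing about the factors that bind elsewhere.

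Each library held 38.1 to 84.2 M gene counts, and the 10 members together took 0.188% to 0.377% of them. The epithelial markers EPCAM, KRT8, KRT18 and KRT19 were abundant in every library, at 412 to 3587 CPM (gene counts scaled to the depth of the library, with library sizes adjusted by TMM). Of the 15 markers of other cell types, 13 stayed at or below 0.481 CPM. The exceptions were COL1A1 at 7.93 to 34.2 CPM and CD68 at 0.617 to 3.5 CPM. Summed over 3 stromal markers, COL1A2 and PDGFRB being near 0, the level was 14.2 to 17.3 CPM in control, 32.2 to 34.3 CPM with PI103, 17.6 to 21.1 CPM with PD0325901 and 7.97 to 9.72 CPM with oxozeaenol. It was 8.91 to 10.8 CPM with PI103+oxozeaenol and 20.9 to 24.7 CPM with PI103+PD0325901, and its part in the results was not tested. Adipocyte and hepatocyte markers, which stand for cell types rich in lipid enzymes, summed to at most 0.281 and 0.498 CPM in a library. In bulk RNA, fewer cells of a kind and less RNA per cell cannot be told apart. The labels number the replicates by batch.

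**Figure D1:**
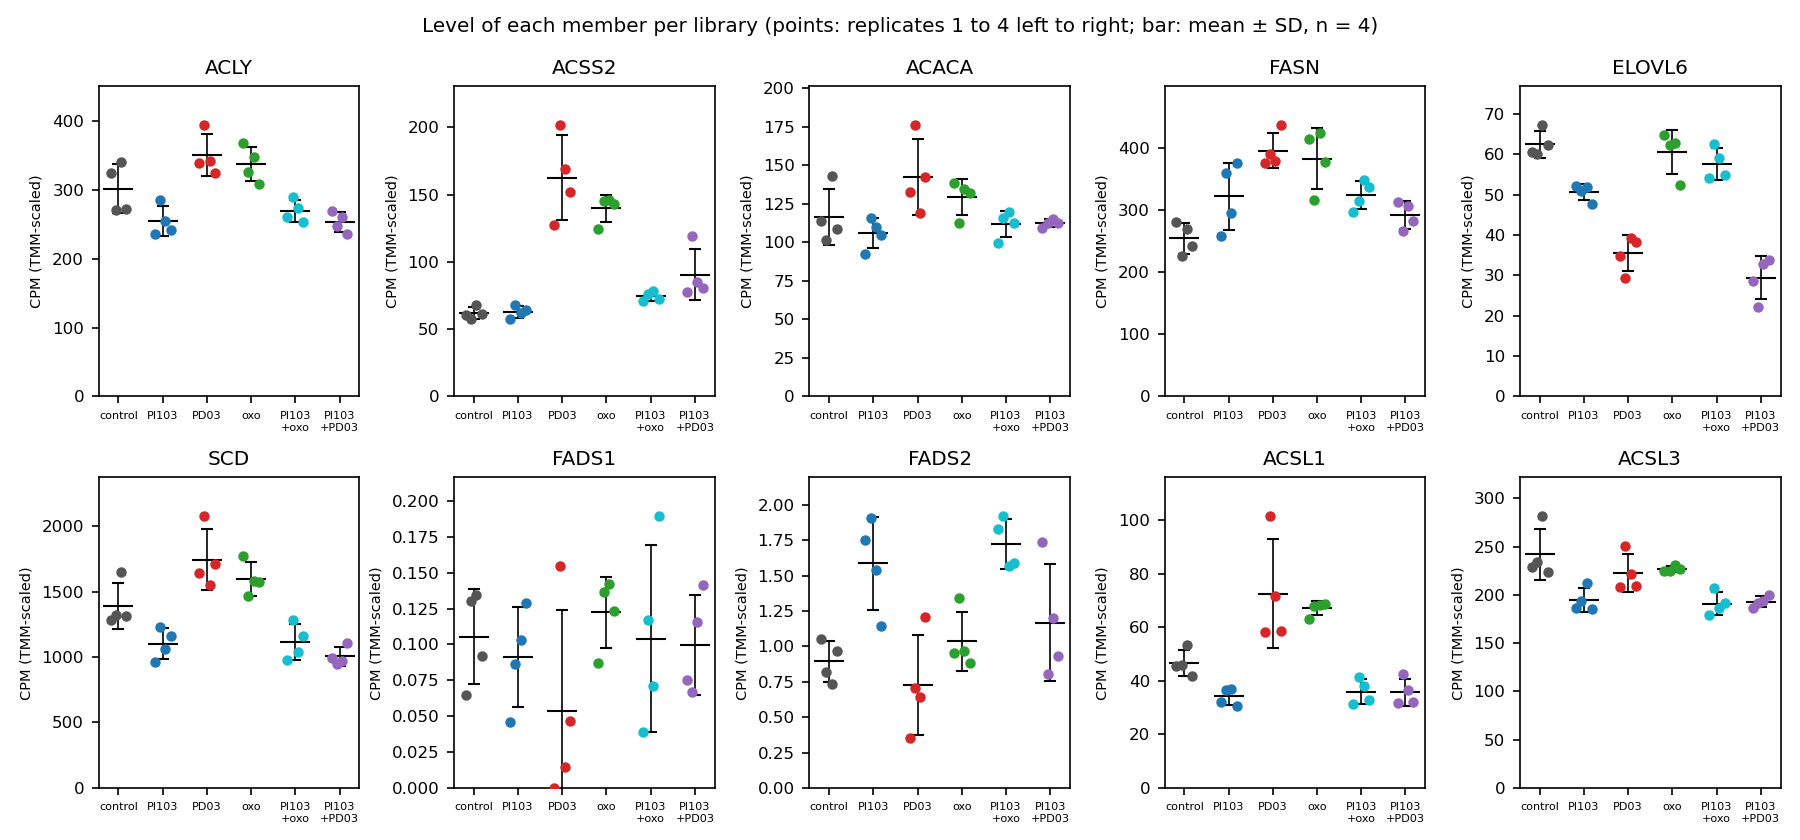
Level of each of the 10 members in every library (vertical axis, CPM on TMM-scaled library sizes, starting at 0) for the 6 groups (horizontal axis; PD03 is PD0325901 and oxo is oxozeaenol). Points are the 4 replicates in order of their number and bars are the mean ± SD, cut at 0 where the SD is larger than the mean; the 4 ACSS2 points with PD0325901 lie between 127 and 202 CPM and all 4 control points below 68.2 CPM.

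Per length of annotated exon, SCD was the most abundant member in every group. In control it stood at 259 ± 32.1 CPM per kb (SD, n = 4), followed by ACLY at 57.9 ± 6.78 CPM per kb, ACSL3 at 33.4 ± 3.67 CPM per kb and FASN at 27.2 ± 2.66 CPM per kb. ACSS2 came next at 11.5 ± 0.838 CPM per kb. ACACA at 8.96 ± 1.40 CPM per kb, ELOVL6 at 8.57 ± 0.459 CPM per kb and ACSL1 at 7.42 ± 0.771 CPM per kb followed, and the difference between ACACA and ELOVL6 was within the SD of ACACA. FADS2 at 0.0811 ± 0.0131 CPM per kb and FADS1 at 0.0103 ± 0.00324 CPM per kb were far below the rest. FASN ranked above ACSL3 in all 5 treated groups, and ACSS2 reached 30.2 ± 5.82 CPM per kb with PD0325901.

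Among the 9 members that could be tested, most calls were falls with PI103 and rises with PD0325901 and oxozeaenol. PI103 lowered 5 members and raised 2, PD0325901 raised 6 and lowered 1, and oxozeaenol raised 3 and lowered none. A gene is called here at an adjusted p under 0.05 in edgeR's quasi-likelihood test, adjusted over all 13947 genes tested, and log2 fold changes are given ± their standard error. FADS1 did not pass the filter on low counts, so counts of members are out of 9. For PI103, 26.2% of all tested genes were called higher and 25.2% lower. For PD0325901 these shares were 28.7% higher and 29.9% lower, and for oxozeaenol 25.7% higher and 26.1% lower. The 2 rises of 9 with PI103 and the 3 of 9 with oxozeaenol were near these shares. The median log2 fold change over the 9 members was -0.25 with PI103, 0.29 with PD0325901 and 0.20 with oxozeaenol, and over all tested genes it was 0.02, -0.02 and 0.02. The 5 comparisons with control share the same 4 control libraries, so they are not independent of each other.

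**Figure D2:**
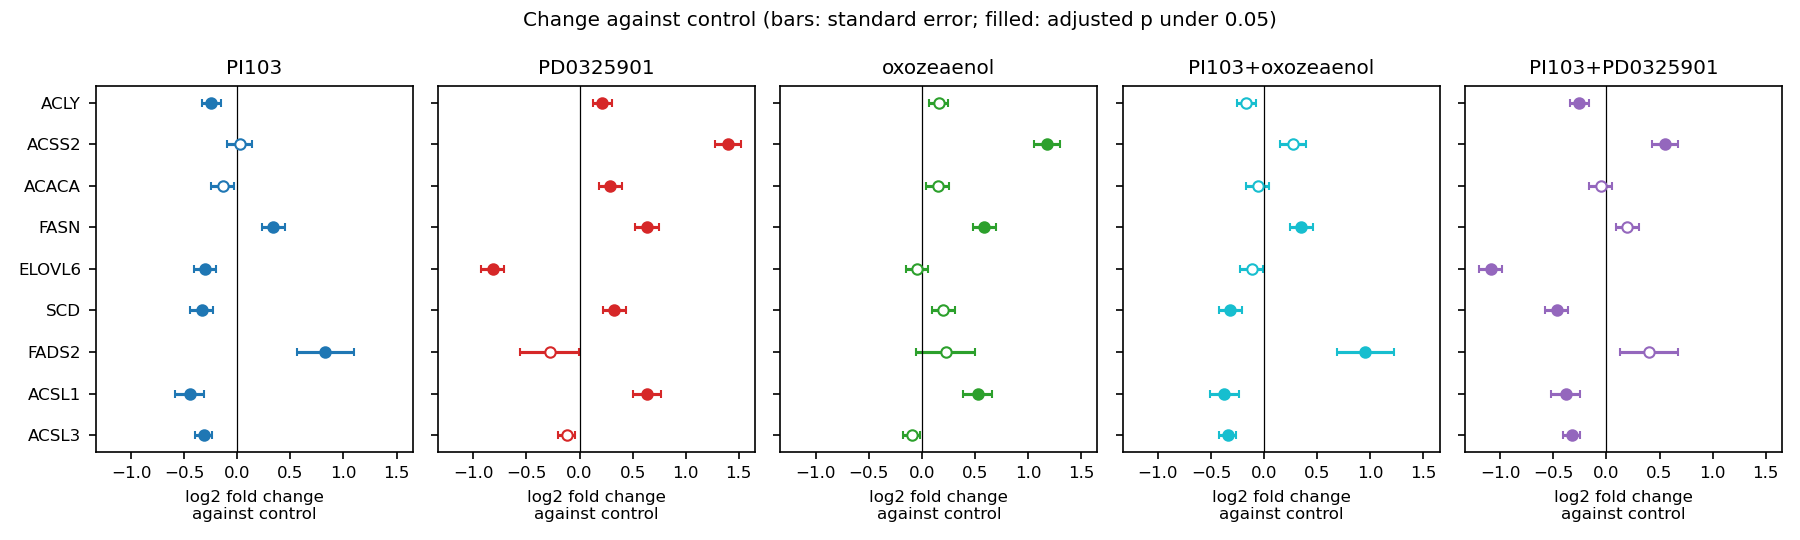
Log2 fold change of each tested member against control (horizontal axis) for the 5 treatments, with the standard error as bars and filled points at an adjusted p under 0.05. ACSS2 lies at 1.40 with PD0325901 and 1.18 with oxozeaenol but at 0.02 with PI103, and ELOVL6 lies at -0.82 with PD0325901.

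Among the enzymes that supply acetyl-CoA, ACSS2 had the largest rise of any member. The control libraries held 60.5, 57.5, 68.1 and 61.04 CPM, and those with PI103 held 57.5, 67.7, 62.1 and 63.99 CPM, so these groups overlapped. With PD0325901 the values were 127, 202, 169 and 152 CPM, and with oxozeaenol 125, 145, 146 and 143 CPM. All 8 of these libraries lay above every control library. The log2 fold change was 1.40 ± 0.12 at adjusted p = 4.10e-10 with PD0325901, 1.18 ± 0.12 at adjusted p = 1.32e-08 with oxozeaenol, and 0.02 ± 0.12 at adjusted p = 0.887 with PI103. PD0325901 replicate 2 was the highest library and replicate 1 the lowest of its group, and the rise stood between 1.07 and 1.81 on the log2 scale in the 4 batches taken singly.

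ACSS2 in the combinations lay between the single agents. The libraries with PI103+PD0325901 held 77.8, 119, 84.9 and 80.4 CPM, and those with PI103+oxozeaenol held 70.9, 76.4, 78.2 and 72.6 CPM. Neither group overlapped control. The rise passed the test with PI103+PD0325901 (log2 fold change 0.55 ± 0.12 at adjusted p = 0.000267), where replicate 2 stood above the other 3. With PI103+oxozeaenol the difference was 0.27 ± 0.12 at adjusted p = 0.0581, and it became a call with the batch number as a replicate block (adjusted p = 0.0188) or without control replicate 3 (adjusted p = 0.043), and also with upper quartile scaling and in the fit of these groups alone.

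ACLY fell with PI103 and PI103+PD0325901 and rose with PD0325901, by less than ACSS2 had risen. Control libraries held 324, 271, 339.9 and 272 CPM, with replicates 1 and 3 above the other 2. The values were 236, 285, 255 and 242 CPM with PI103 and 339, 394, 342 and 325 CPM with PD0325901. Both groups overlapped control, and in batch 2 the PI103 library was the higher of its pair. ACLY fell with PI103 (log2 fold change -0.25 ± 0.09 at adjusted p = 0.0238) and with PI103+PD0325901 (-0.25 ± 0.09 at adjusted p = 0.0154), whose range of 236 to 269 CPM lay below control, and rose with PD0325901 (0.21 ± 0.09 at adjusted p = 0.0431). It was not called with oxozeaenol (0.16 ± 0.09 at adjusted p = 0.137), except with upper quartile scaling, or PI103+oxozeaenol (-0.17 ± 0.09 at adjusted p = 0.117). The fall with PI103 lost its call (adjusted p up to 0.106) without control replicate 1 or 3 or PI103 replicate 1 or 4, and the rise with PD0325901 (up to 0.159) without control replicate 2 or 4 or PD0325901 replicate 2 or 3, with no filter and in the fit of these groups alone. The fall with PI103+PD0325901 lost it (up to 0.105) without control replicate 1 or 3 or PI103+PD0325901 replicate 4, and both falls lost it with upper quartile scaling.

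ACACA, which commits acetyl-CoA to fatty acids, was called in 1 of the 5 comparisons with control. Its control libraries held 113, 101, 143 and 108 CPM, replicate 3 standing highest, and those with PD0325901 held 132, 176, 119 and 142 CPM. These ranges overlapped, and PD0325901 was the lower of the pair in batch 3. The log2 fold change with PD0325901 was 0.29 ± 0.11 at adjusted p = 0.0255, and the call was lost (adjusted p up to 0.114) without control replicate 1, 2 or 4 or PD0325901 replicate 2 and in the fit of these groups alone. With the other treatments the mean stood at 106 to 129 CPM against 117 ± 18.2 CPM (SD, n = 4) in control, and adjusted p was 0.258 to 0.68. Without control replicate 3 the difference with oxozeaenol became a call (adjusted p = 0.042).

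FASN, the synthase itself, rose with all 3 single agents. Control libraries held 281, 226, 269 and 241 CPM. They compare with 259, 359, 296 and 375 CPM under PI103, 375, 390.5, 378 and 437 CPM under PD0325901 and 414, 315, 424 and 377 CPM under oxozeaenol. Every library with PD0325901 or oxozeaenol exceeded every control library, whereas PI103 replicate 1 lay within the control range and below the control library of its own batch. Its log2 fold change was 0.64 ± 0.11 at adjusted p = 1.94e-05 with PD0325901, 0.59 ± 0.11 at adjusted p = 7.33e-05 with oxozeaenol, and 0.34 ± 0.11 at adjusted p = 0.0111 with PI103. The PI103 call was lost without PI103 replicate 4 (adjusted p = 0.0641). With PI103+oxozeaenol the range of 297 to 348 CPM lay above control and FASN was called higher (0.35 ± 0.11 at adjusted p = 0.0082). With PI103+PD0325901 the range of 265 to 312 CPM overlapped control and the difference was not called (0.20 ± 0.11 at adjusted p = 0.114), although it was with upper quartile scaling (adjusted p = 0.0078).

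ELOVL6 had the largest fall of any member, with PI103+PD0325901, and the next largest with PD0325901 alone. The control libraries held 60.5, 60.01, 67.3 and 62.4 CPM. The values were 34.9, 29.4, 39.3 and 38.3 CPM with PD0325901 and 28.6, 22.2, 32.9 and 33.9 CPM with PI103+PD0325901. All 8 lay below every control library, and replicate 2 was the lowest in both groups. The log2 fold change was -0.82 ± 0.11 at adjusted p = 3.30e-07 with PD0325901 and -1.09 ± 0.11 at adjusted p = 2.06e-09 with PI103+PD0325901.

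PI103 alone gave a smaller fall of ELOVL6. Its libraries held 52.1, 50.8, 51.96 and 47.7 CPM, all below control (log2 fold change -0.31 ± 0.11 at adjusted p = 0.0176). That call was lost without PI103 replicate 4 (adjusted p = 0.0529) and with upper quartile scaling (0.0523). Oxozeaenol left ELOVL6 at 64.8, 62.3, 62.8 and 52.4 CPM, overlapping control (-0.05 ± 0.11 at adjusted p = 0.733), and PI103+oxozeaenol at 54.05 to 62.6 CPM (-0.12 ± 0.11 at adjusted p = 0.353).

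SCD, the stearoyl-CoA desaturase, followed ACLY at a higher level. Control libraries held 1284, 1318, 1648 and 1312 CPM, and replicate 3 stood apart from the other 3. With PI103 the values were 962, 1229.6, 1063 and 1158 CPM, all below control, and with PD0325901 1644, 2076, 1548 and 1715 CPM, of which replicate 3 lay below control replicate 3. SCD fell with PI103 (log2 fold change -0.33 ± 0.11 at adjusted p = 0.013) and rose with PD0325901 (0.33 ± 0.11 at adjusted p = 0.0125). The range of 1468 to 1774 CPM with oxozeaenol overlapped control (0.20 ± 0.11 at adjusted p = 0.129), which became a call without control replicate 3 (adjusted p = 0.0331) and with upper quartile scaling.

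Both combinations lowered SCD. With PI103+oxozeaenol its level was 976, 1284, 1037 and 1161 CPM, replicate 2 reaching the lower end of control, and with PI103+PD0325901 it was 993, 948, 971 and 1107 CPM, all below control. The log2 fold change was -0.32 ± 0.11 at adjusted p = 0.0157 with the first and -0.47 ± 0.11 at adjusted p = 0.000578 with the second. Without control replicate 3 or PI103 replicate 1 the fall with PI103 was not called (adjusted p up to 0.0677), and the fall with PI103+oxozeaenol (up to 0.0948) was not called without control replicate 3 or its own replicate 1 or 3, nor with upper quartile scaling.

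The desaturases of polyunsaturated chains had few counts. The elongation genes HSD17B12 and ELOVL5 had almost none in the same data, and the annotation behind the counts is not known. Whether FADS1 and FADS2 mRNA was truly this low was not tested. FADS1 had 0 to 11 counts in a library, at most 0.189 CPM, and in a fit with no filter on low counts it was not called against control in any treatment (adjusted p 0.232 to 0.991). No fold is given at these counts. FADS2, which takes the step before FADS1, stood at 1.05, 0.820, 0.733 and 0.971 CPM in control, 1.75, 1.91, 1.54 and 1.15 CPM with PI103 and 1.83, 1.92, 1.57 and 1.59 CPM with PI103+oxozeaenol. Both treated groups lay above control, PI103 replicate 4 being the closest to it. FADS2 rose with PI103 (log2 fold change 0.83 ± 0.27 at adjusted p = 0.0117) and with PI103+oxozeaenol (0.95 ± 0.27 at adjusted p = 0.00383). With PD0325901 its range was 0.356 to 1.21 CPM, with oxozeaenol 0.882 to 1.34 CPM and with PI103+PD0325901 0.806 to 1.74 CPM. These 3 groups overlapped control and were not called (adjusted p 0.196 to 0.515).

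ACSL1, which activates long-chain fatty acids, moved in opposite directions under the single agents. Control libraries held 45.7, 45.7, 53.3 and 41.8 CPM. The values were 32.3, 36.7, 37.01 and 30.6 CPM with PI103, 58.3, 101, 71.7 and 58.4 CPM with PD0325901 and 63.3, 68.1, 68.2 and 68.8 CPM with oxozeaenol. PI103 lay wholly below control and the other 2 wholly above, with PD0325901 replicate 2 far above the rest of its group. Its log2 fold change was -0.45 ± 0.14 at adjusted p = 0.00746 with PI103, 0.64 ± 0.14 at adjusted p = 0.000261 with PD0325901, and 0.52 ± 0.14 at adjusted p = 0.00222 with oxozeaenol. Without PD0325901 replicate 2 the rise with PD0325901 was 0.46 on the log2 scale and remained a call.

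In the combinations ACSL1 fell, as with PI103. Its range was 31.5 to 41.5 CPM with PI103+oxozeaenol (-0.38 ± 0.14 at adjusted p = 0.0213) and 31.7 to 42.5 CPM with PI103+PD0325901 (-0.39 ± 0.14 at adjusted p = 0.0155), where replicate 2 reached the control range. The first call was lost (adjusted p up to 0.0929) without control replicate 3 or PI103+oxozeaenol replicate 1 or 4, and the second (up to 0.0805) without control replicate 3 or PI103+PD0325901 replicate 1. Both were lost with upper quartile scaling.

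ACSL3, an acyl-CoA synthetase found at the endoplasmic reticulum and lipid droplets, fell in the 3 groups with PI103 and was not called in the other 2. Control libraries held 228, 234, 281 and 224 CPM. The range was 185 to 212 CPM with PI103, 179 to 207 CPM with PI103+oxozeaenol and 186 to 200.3 CPM with PI103+PD0325901. None of these groups overlapped control. Its log2 fold change was -0.32 ± 0.08 at adjusted p = 0.00171 with PI103, -0.34 ± 0.08 at adjusted p = 0.000735 with PI103+oxozeaenol and -0.33 ± 0.08 at adjusted p = 0.000852 with PI103+PD0325901. PD0325901 left ACSL3 at 208 to 250.4 CPM (-0.12 ± 0.08 at adjusted p = 0.195) and oxozeaenol at 224 to 231 CPM (-0.09 ± 0.08 at adjusted p = 0.334), both overlapping control.

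Tested directly, PI103 differed from PD0325901 in all 9 members. ACLY, ACSS2, ACACA, FASN, SCD, ACSL1 and ACSL3 were lower with PI103 and ELOVL6 and FADS2 were higher, against 21.7% of all genes called higher and 22.9% lower. Among the lower members the widest gaps were in ACSS2 (-1.37 ± 0.12 at adjusted p = 1.30e-09) and ACSL1 (-1.09 ± 0.14 at adjusted p = 5.03e-07). FADS2 was higher with PI103 by 1.11 ± 0.27 at adjusted p = 0.00172, and ELOVL6 by 0.51 ± 0.11 at adjusted p = 0.000298. The smallest gap was in ACSL3 (-0.19 ± 0.08 at adjusted p = 0.0494), which 5 of the 8 omissions of a single library took past the threshold (adjusted p up to 0.128): PI103 replicates 1, 2 and 4 and PD0325901 replicates 2 and 3. It was also lost with no filter and in the fit of these groups alone (up to 0.0929). FASN (-0.30 ± 0.11 at adjusted p = 0.0294) lost its call (up to 0.149) without PI103 replicate 1 or 3 or PD0325901 replicate 4, and in the fit of these groups alone (0.0588).

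PI103 also stood below oxozeaenol in 7 members and above it in none, against 22.5% of all genes called lower and 20.6% higher. The differences were largest in ACSS2 (-1.15 ± 0.12 at adjusted p = 3.41e-08), ACSL1 (-0.97 ± 0.14 at adjusted p = 3.01e-06), SCD (-0.53 ± 0.11 at adjusted p = 0.000344) and ACLY (-0.41 ± 0.09 at adjusted p = 0.000705). No library with PI103 reached the oxozeaenol range in these 4 genes. The calls of ACACA (-0.29 ± 0.11 at adjusted p = 0.0347), ACSL3 (-0.22 ± 0.08 at adjusted p = 0.0265) and ELOVL6 (-0.26 ± 0.11 at adjusted p = 0.0495) each depended on single libraries: 5, 4 and 7 of the 8 omissions ended them, with adjusted p up to 0.123, 0.0715 and 0.109, and PI103 replicate 1 and replicate 4 were among the omissions that ended each of the 3. All 3 calls also ended with no filter on low counts. FASN (adjusted p = 0.0677) became a call without PI103 replicate 2 or 4 or oxozeaenol replicate 2, and FADS2 (0.0711) without PI103 replicate 4 or oxozeaenol replicate 2 and in the fit of these groups alone. The count of members called was 4 without PI103 replicate 1 and 4 without oxozeaenol replicate 3.

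Between oxozeaenol and PD0325901 only ELOVL6 was called, against 13.4% of all genes called higher and 15.1% lower with oxozeaenol. Its libraries held 52.4 to 64.8 CPM with oxozeaenol and 29.4 to 39.3 CPM with PD0325901, which did not overlap (log2 difference 0.77 ± 0.11 at adjusted p = 9.49e-06). For the other 8 tested members the difference missed the threshold, which does not show that the agents act alike on them. The 95% interval for ACSS2 ran from -0.45 to 0.02, and for FASN from -0.26 to 0.17. ACSS2 became a call (adjusted p = 0.0375) without PD0325901 replicate 1, and FADS2 (adjusted p = 0.0217) without PD0325901 replicate 4, giving 2 members in each case.

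The combinations were called against PI103 in 0 and 2 members and against the partner agent in 5 and 6. PI103+oxozeaenol differed from PI103 in 0 of 9 members under edgeR's quasi-likelihood test, with log2 differences of -0.03 to 0.25 and 1 unadjusted p under 0.05 (ACSS2, 0.0498), while 9.39% of all genes were called higher and 8.92% lower. ACSS2 and ELOVL6 had groups that did not overlap here, and both were called when the fit used these groups alone. From oxozeaenol, the same combination differed in 5 members, all lower: ACSS2 (-0.91 ± 0.12 at adjusted p = 1.57e-05), ACSL1 (-0.90 ± 0.14 at adjusted p = 8.67e-05), SCD (-0.52 ± 0.11 at adjusted p = 0.00223), ACLY (-0.33 ± 0.09 at adjusted p = 0.0146) and ACSL3 (-0.25 ± 0.08 at adjusted p = 0.0361). The background was 7.28% of all genes lower and 7.59% higher. Without PI103+oxozeaenol replicate 1 the count fell to 3, ACLY (adjusted p = 0.0622) and ACSL3 being lost, and 7 of the 8 omissions, all but PI103+oxozeaenol replicate 2, ended the ACSL3 call, as did no filter on low counts. FADS2 (adjusted p = 0.0667) became a call in DESeq2's Wald test and in the fit of these groups alone.

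Against control, PI103+oxozeaenol raised 2 members, FASN and FADS2, and lowered 3, SCD, ACSL1 and ACSL3. Of all genes, 27.7% were called higher and 27.9% lower. Without PI103+oxozeaenol replicate 1 the count of members called was 3. The median over the 9 members was -0.12, and 0.02 over all genes. PI103+PD0325901 raised 1 member, ACSS2, and lowered 5, ACLY, ELOVL6, SCD, ACSL1 and ACSL3, against 32.2% of all genes higher and 32.6% lower. The median over the 9 members was -0.25. Upper quartile scaling moved the median of all genes in that comparison from 0.01 to 0.15, and its split from 4486 higher and 4553 lower to 5541 higher and 3536 lower. Under that scaling ACLY and ACSL1 were no longer called, and SCD, ELOVL6 and ACSL3 kept their falls and ACSS2 its rise.

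PI103+PD0325901 differed from PI103 in 2 members, and in FADS2 too without PI103+PD0325901 replicate 1. ACSS2 was higher (0.53 ± 0.12 at adjusted p = 0.00109) and ELOVL6 lower (-0.78 ± 0.11 at adjusted p = 2.52e-06), and in both genes the groups did not overlap. Of all genes, 18.8% were called higher and 19.9% lower, 2616 against 2775, and 3183 against 2137 with upper quartile scaling. From PD0325901 it differed in 6 members, all lower: ACSL1 (-1.02 ± 0.14 at adjusted p = 1.51e-05), ACSS2 (-0.84 ± 0.12 at adjusted p = 2.86e-05), SCD (-0.80 ± 0.11 at adjusted p = 2.01e-05), ACLY (-0.47 ± 0.09 at adjusted p = 0.000813), FASN (-0.44 ± 0.11 at adjusted p = 0.00695) and ACACA (-0.34 ± 0.11 at adjusted p = 0.0301). The background there was 10.0% of genes lower and 8.06% higher, 1397 against 1124, and 1008 against 1509 with upper quartile scaling. The ACACA call was lost (adjusted p up to 0.0944) without PD0325901 replicate 2 or 4 or PI103+PD0325901 replicate 1, 3 or 4, and (up to 0.0845) with upper quartile scaling and in the fit of these groups alone. ELOVL6 (adjusted p = 0.0754) and ACSL3 (0.0732) missed the threshold and passed it with the replicate block (0.0476 and 0.0372), ACSL3 also in DESeq2's Wald test. ELOVL6 also passed without PD0325901 replicate 2 or PI103+PD0325901 replicate 4, and FADS2 (0.0834) did without PD0325901 replicate 4 or PI103+PD0325901 replicate 2.

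**Figure D3:**
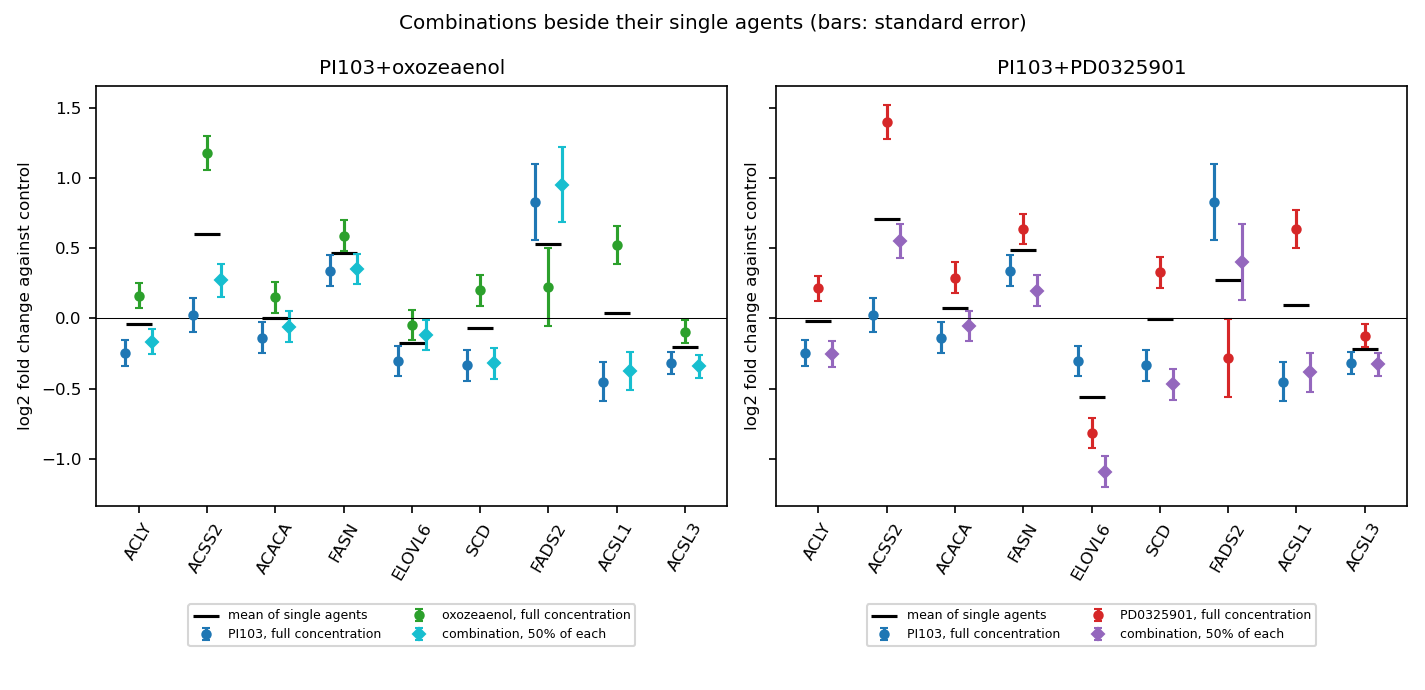
Log2 fold change against control (vertical axis, bars are standard errors) of each tested member for PI103, its partner and their combination, with a black dash at the mean of the 2 single agents. ACSL1 lies at -0.38 with PI103+oxozeaenol and -0.39 with PI103+PD0325901, close to the -0.45 of PI103 and below the dash in both panels.

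Each combination was also set against the average log2 change of its parts, the value it would take if log2 changes were proportional to concentration and added. PI103+PD0325901 lay below that mean in 5 members and above it in none, against 11.1% of all genes called lower and 10.8% higher (1553 and 1512, or 1022 and 1996 with upper quartile scaling). The 5 were ELOVL6 (-0.53 ± 0.09 at adjusted p = 0.000315), ACSL1 (-0.48 ± 0.12 at adjusted p = 0.00615), SCD (-0.47 ± 0.10 at adjusted p = 0.00137), FASN (-0.29 ± 0.10 at adjusted p = 0.0307) and ACLY (-0.24 ± 0.08 at adjusted p = 0.0307). In ELOVL6, SCD and ACSL1 the departure had the same sign in all 4 batches and kept its call in each of the 12 omissions of a library. The calls of ACLY (adjusted p up to 0.103) and FASN (up to 0.13) did not: both were lost without PI103 replicate 2 or PI103+PD0325901 replicate 2 or 4, ACLY also without PD0325901 replicate 2, and FASN also without PI103 or PD0325901 replicate 4. Both were lost with upper quartile scaling, and ACLY with no filter. ACSS2 (adjusted p = 0.285) became a call without PI103+PD0325901 replicate 2 (adjusted p = 0.0334).

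PI103+oxozeaenol departed from its mean in 1 member, ACSL1 (-0.41 ± 0.12 at adjusted p = 0.0497), against 1.10% of all genes lower and 2.88% higher. This call ended in 11 of 12 omissions of a library, all but PI103+oxozeaenol replicate 2, and with DESeq2 size factors, upper quartile scaling or no filter. ACSS2 lay -0.33 ± 0.11 at adjusted p = 0.0781 from the mean, and with the replicate block it was called (adjusted p = 0.0161).

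**Figure D4:**
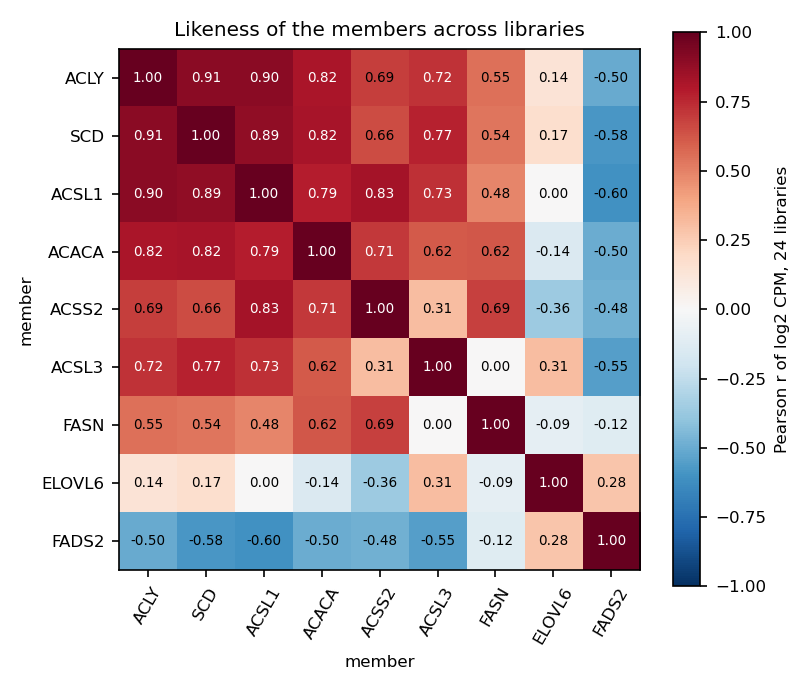
Pearson correlation of log2 CPM between the 9 tested members over the 24 libraries (colour and printed value; both axes list the members). ACLY, SCD and ACSL1 correlate at 0.89 to 0.91 with each other, and ELOVL6 and FADS2 stand apart from them.

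Across the 24 libraries, which share the treatments and are not independent, ACLY and SCD had the highest correlation of log2 CPM of any pair of members (r = 0.905), followed by ACLY and ACSL1 (r = 0.903) and SCD and ACSL1 (r = 0.887). After group means were subtracted, the values were 0.577, 0.563 and 0.429. ACSS2 and ACSL1 correlated at 0.832, and at 0.813 within groups. Replicate 2 was the highest library for both genes with PD0325901 and with PI103+PD0325901. Both libraries also stood apart over all tested genes on the first principal component, the axis of largest spread. They lay at 53.0 against 23.5 to 31.1, and at 63.4 against 33.3 to 37.7. The correlation without them was not computed. ELOVL6 had a correlation of 0.138 with ACLY, 0.17 with SCD and -0.362 with ACSS2. FADS2 correlated negatively with 7 of the 8 others, at -0.603 with ACSL1 and -0.583 with SCD, and at 0.277 with ELOVL6.

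Of 10032 other genes with a mean of at least 5 CPM, the one most like ACSS2 over the 24 libraries was MVD (r = 0.972), an enzyme of cholesterol synthesis, followed by AQP3 (r = 0.965). ELOVL6 was most like ENOPH1 and PAICS (both r = 0.966), the second an enzyme of purine synthesis. For ACSL1 these genes were ABCD3 (r = 0.933), a peroxisomal transporter, and CAMKMT (r = 0.885), and for ACSL3 they were TMEM33 (r = 0.91) and PREPL (r = 0.899). SCD was most like DHCR7 (r = 0.867), which catalyses the last step of cholesterol synthesis, and WDR55 (r = 0.848). FASN was most like FHOD1 (r = 0.882) and LSS (r = 0.843), the lanosterol synthase, and ACLY like MCCC2 (r = 0.89) and AIFM1 (r = 0.879). For ACACA they were MIA3 (r = 0.812) and AHCYL1 (r = 0.788), and for FADS2 FAM171A1 (r = 0.806) and COMMD4 (r = 0.782). These are the highest of many values and are given as a description.

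The transcription factor genes upstream of the members moved unlike each other. SREBF1, whose product drives lipogenic enzymes, fell with PI103 (log2 fold change -0.80 ± 0.10 at adjusted p = 4.57e-07), PI103+oxozeaenol (-0.58 ± 0.10 at adjusted p = 3.41e-05) and PI103+PD0325901 (-0.71 ± 0.10 at adjusted p = 1.38e-06). It was not called with PD0325901 (-0.18 ± 0.10 at adjusted p = 0.125) or oxozeaenol (-0.21 ± 0.10 at adjusted p = 0.0837). SREBF2, whose product drives cholesterol synthesis, rose in 4 treatments by 0.34 to 0.46 and was not called with PI103 (0.13 ± 0.09 at adjusted p = 0.229). INSIG1, which holds both proteins in the endoplasmic reticulum, rose in all 5 by 0.51 to 0.97. SCAP, their escort, was called in none (adjusted p 0.0509 to 0.656).

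On the cholesterol side, HMGCS1 and SQLE, early and later enzymes of sterol synthesis and targets of the same factors, rose in all 5 treatments, most with PD0325901 (log2 fold change HMGCS1 1.49 ± 0.18 at adjusted p = 2.27e-07 and SQLE 1.37 ± 0.16 at adjusted p = 5.64e-08) and less with PI103 (HMGCS1 0.54 ± 0.18 at adjusted p = 0.0147 and SQLE 0.90 ± 0.16 at adjusted p = 3.13e-05).

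The wider list of 20 regulators, of which 18 were tested, showed no common direction: 5 rose and 5 fell with PI103, 7 and 6 with PD0325901, 5 and 5 with oxozeaenol, 6 and 5 with PI103+oxozeaenol and 8 and 6 with PI103+PD0325901. Over the 5 treatments, 25.2% to 32.6% of all tested genes were called in each direction. The 5 and 5 of 18 with PI103 and with oxozeaenol were near that share. The median log2 fold change over the tested genes was 0.06, 0.01, -0.02, 0.13 and 0.07 in the order PI103, PD0325901, oxozeaenol, PI103+oxozeaenol and PI103+PD0325901, against 0.02, -0.02, 0.02, 0.02 and 0.01 over all genes. MID1IP1, whose product promotes the assembly of acetyl-CoA carboxylase, fell in all 5 treatments, from -0.85 ± 0.11 at adjusted p = 7.23e-07 with oxozeaenol to -1.53 ± 0.12 at adjusted p = 1.88e-11 with PI103+PD0325901. PPARA, a receptor that drives fatty acid oxidation, rose in all 5, from 1.21 ± 0.19 at adjusted p = 1.01e-05 with oxozeaenol to 2.15 ± 0.19 at adjusted p = 5.22e-10 with PI103+PD0325901, at 2.94 CPM in control.

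Of 29 other enzymes of the pathway, 24 were tested. With PD0325901, 11 rose and 2 fell, with oxozeaenol 9 and 1, with PI103 7 and 7, and with each combination 9 and 6. The share of all tested genes was 25.2% to 32.6% in each direction, and the 7 and 7 of 24 with PI103 were near it. Their median log2 fold change, ordered as for the regulators, was -0.09, 0.33, 0.14, -0.06 and 0.07. ELOVL7, an elongase, rose with PD0325901 (1.54 ± 0.14 at adjusted p = 1.18e-09), oxozeaenol (1.35 ± 0.14 at adjusted p = 1.80e-08), PI103+PD0325901 (0.99 ± 0.14 at adjusted p = 1.10e-06) and PI103+oxozeaenol (0.75 ± 0.14 at adjusted p = 7.23e-05). SLC27A2, an acyl-CoA synthetase of very long chains, fell with PI103 (-1.15 ± 0.09 at adjusted p = 2.39e-10), PI103+PD0325901 (-0.48 ± 0.09 at adjusted p = 6.56e-05) and PI103+oxozeaenol (-0.29 ± 0.09 at adjusted p = 0.0093) and rose with oxozeaenol (0.23 ± 0.09 at adjusted p = 0.0393). SLC27A5 fell with PI103 (-0.97 ± 0.18 at adjusted p = 6.05e-05), PI103+PD0325901 (-0.94 ± 0.18 at adjusted p = 4.68e-05) and PI103+oxozeaenol (-0.47 ± 0.17 at adjusted p = 0.0233). SLC27A3 rose in all 5 treatments, by 0.70 with PI103 to 0.89 with PI103+oxozeaenol. MCAT, of mitochondrial fatty acid synthesis, fell with PI103+PD0325901 (-0.72 ± 0.11 at adjusted p = 2.65e-06), PD0325901 (-0.45 ± 0.11 at adjusted p = 0.00104) and PI103 (-0.38 ± 0.11 at adjusted p = 0.00533). The 5 not tested were ELOVL2, ELOVL4, ELOVL5, HSD17B12 and SLC27A6. Of these, HSD17B12, which acts widely in chain elongation, is listed at 0 in every library, and ELOVL5 at 0 to 2 counts.

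Of 17 genes of glycerolipid synthesis and lipid droplets, 16 were tested. More rose than fell in each treatment: 8 and 2 with PI103, 8 and 3 with PD0325901, 7 and 3 with oxozeaenol, 8 and 3 with PI103+oxozeaenol and 10 and 4 with PI103+PD0325901. Among all tested genes, 25.7% to 32.2% were called higher and 25.2% to 32.6% lower. Their median log2 fold change, ordered as for the regulators, was 0.19, 0.27, 0.21, 0.31 and 0.33. The glycerol-phosphate acyltransferase GPAT3, listed as AGPAT9, fell in all 5 treatments and had the largest fall of the list in each. From 32.7 CPM in control AGPAT9 went to 4.11 CPM with PI103+PD0325901 (-2.99 ± 0.11 at adjusted p = 1.43e-16), 5.37 CPM with PI103 (-2.61 ± 0.11 at adjusted p = 5.47e-15) and 7.37 CPM with PD0325901 (-2.15 ± 0.11 at adjusted p = 2.99e-14). Its change was -2.50 with PI103+oxozeaenol and -2.05 with oxozeaenol. LPIN2 and LPIN3, phosphatidate phosphatases, rose in all 5 treatments. LPIN2 rose by 0.52 to 1.38 and LPIN3 by 0.72 to 1.13, in each case with the highest value under PI103+PD0325901. LPIN1, on the same list, was called lower with PI103, PI103+oxozeaenol and PI103+PD0325901. It was not called with PD0325901 or oxozeaenol. AGPAT4 rose with PD0325901 (1.22 ± 0.16 at adjusted p = 2.63e-07), PI103+PD0325901 (0.95) and oxozeaenol (0.71).

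Fatty acid oxidation, the opposing route, is represented by 24 genes, all tested. With PD0325901 19 rose and none fell, with oxozeaenol 14 rose and 1 fell, and with PI103 4 rose and 7 fell. With PI103+oxozeaenol 8 rose and 4 fell, and with PI103+PD0325901 14 rose and 4 fell. Among all tested genes, 25.7% to 32.2% were called higher and 25.2% to 32.6% lower over the 5 treatments. The split for PI103 became 7 rises and 4 falls with upper quartile scaling. The list median log2 fold change, ordered as for the regulators, was 0.06, 0.49, 0.31, 0.15 and 0.31. DECR1, which handles unsaturated chains in mitochondria, rose with PD0325901 (1.31 ± 0.12 at adjusted p = 1.99e-09), PI103+PD0325901 (1.26 ± 0.12 at adjusted p = 2.37e-09), oxozeaenol (1.00 ± 0.12 at adjusted p = 2.81e-07) and PI103+oxozeaenol (0.74 ± 0.12 at adjusted p = 1.49e-05). ETFB rose in all 5 treatments, by 0.35 with PI103+PD0325901 to 0.98 with PD0325901, and so did ACADVL, the very-long-chain dehydrogenase, by 0.59 with PI103 to 0.92 with PI103+oxozeaenol. ETFDH, which passes electrons from oxidation to the respiratory chain, fell with PI103 (-0.57 ± 0.11 at adjusted p = 0.000105), PI103+oxozeaenol (-0.62 ± 0.11 at adjusted p = 3.08e-05) and PI103+PD0325901 (-0.67 ± 0.11 at adjusted p = 6.80e-06). HADHA fell in every treatment but PD0325901, at -0.23 with PI103, -0.25 with oxozeaenol, -0.32 with PI103+PD0325901 and -0.37 with PI103+oxozeaenol. Its difference with oxozeaenol was -0.10, -0.18, -0.14 and -0.61 in batches 1 to 4, batch 4 standing apart, and the test without that batch was not run.

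**Figure D5:**
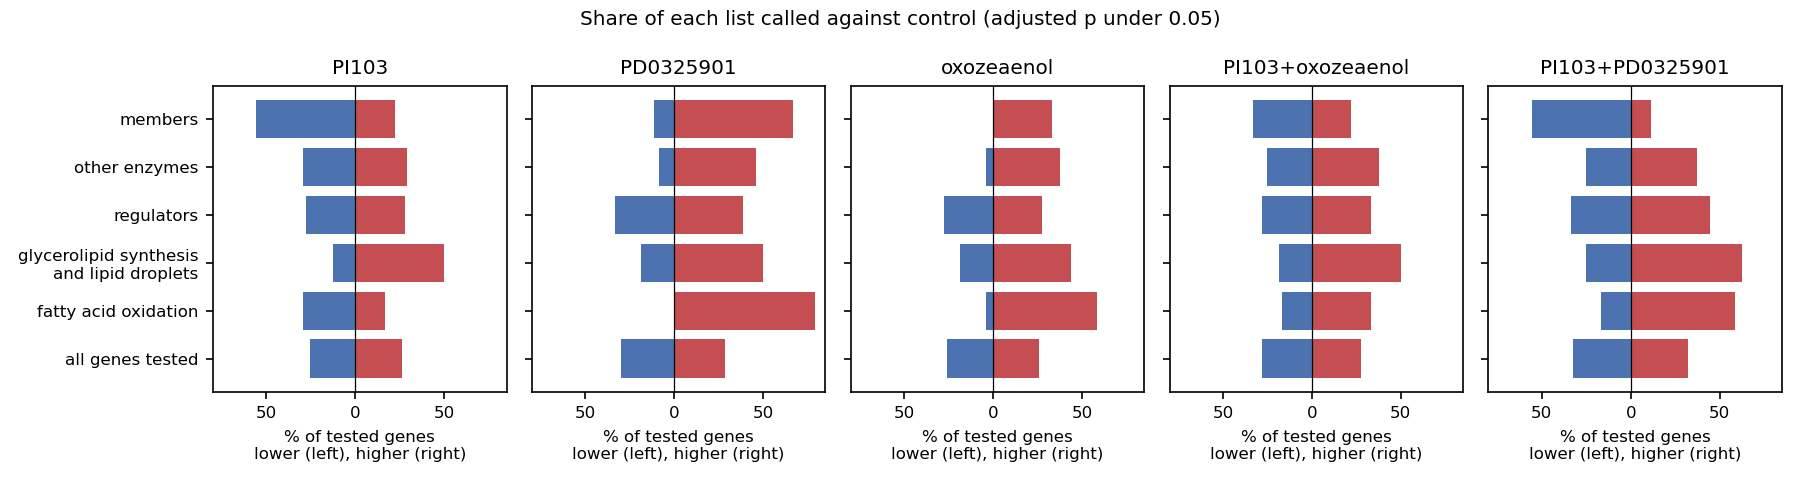
Share of the tested genes of each list called higher (right, red) or lower (left, blue) against control, in percent, for the 5 treatments, with all tested genes in the bottom row. For PD0325901 the bar of fatty acid oxidation holds 19 of 24 genes, all on the right, and that of the members holds 6 of 9 on the right and 1 of 9 on the left.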

How the data were processed

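Per the labels, 0.8 µg of total RNA went into each stranded mRNA library, and the authors deposited whole-number read counts per gene symbol. The build is GRCh38 per the submitters' processing notes; aligner, counter and annotation are not given in the sources used here. Tallies of unassigned reads (no feature 4.24% to 8.57%, ambiguous 1.57% to 2.01%, not uniquely aligned 4.64% to 6.06%) were left out, and 0 columns lacked a sample. Members and gene lists were chosen with earlier results of these data known. All members are reported whatever their values; from the other lists the text names SREBF1, SREBF2, SCAP, INSIG1, HMGCS1 and SQLE (the rest of their list is not reported here) and, per list and treatment, the largest called rise and fall with a mean of at least 5 CPM and 1 sign in all 4 batches, and per member the 2 most correlated genes (log2 CPM, prior count 2). ELOVL5, HSD17B12 and LPIN1 were named after their values were seen.

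Genes were filtered with filterByExpr (13947 of 23368, 99.989% of counts), TMM-scaled, and modelled in edgeR 4.0.16 (R 4.3.3) as 1 coefficient per group over 24 libraries. The quasi-likelihood F test was two-sided, with Benjamini-Hochberg adjustment over the genes of each of 14 contrasts. Standard errors are the absolute log2 fold change over the square root of F, and 95% intervals span 1.96 of them. The script was tested on simulated data. Alternatives were other scalings, no filter, DESeq2 1.42.0, the batch as a replicate block, the contrast's groups alone, and leaving out each library. The labels give the batch as the replicate number: deviations from group means correlated at 0.12 on average over 60 same-numbered pairs (47 positive) and at -0.04 over 180 others.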

Additional observations from a re-analysis of the deposited data

Results flagged for a closer look

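In 3 of the 60 groups of 4 CPM values (10 members in 6 groups) 1 library stood apart, its gap to the nearest other library taking up most of the group's range (Dixon's criterion at the 95% level). Chance alone flags about 1 in 20 such groups. SCD was 1648 CPM in control replicate 3 against 1284 to 1318 CPM in the other 3 control libraries. ACSS2 was 125 CPM in oxozeaenol replicate 1 against 143 to 146 CPM in the other 3. ACSL1 was 63.3 CPM in oxozeaenol replicate 1 against 68.1 to 68.8 CPM in the other 3. Without control replicate 3 the fall of SCD with PI103 and with PI103+oxozeaenol was not called, and the rises of ACSS2 and ACSL1 with oxozeaenol kept their calls without oxozeaenol replicate 1.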

How the results depend on the processing

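Of 64 calls of members over the 14 contrasts, 43 held in every omission of a library and 46 under all 6 other settings, and none of the 64 changed sign. Of the 28 calls against control, 18 held throughout. Members called, of 9, moved past 1.5 times in these cases. Oxozeaenol against control gave 3 members, 5 with upper quartile scaling and 3 to 5 in the omissions. PI103 against oxozeaenol gave 7 members, 4 with no filter on low counts and 4 to 8 in the omissions. PI103+oxozeaenol against PI103 gave 0 members and 2 in the fit of these groups alone. PI103+oxozeaenol against the mean of its single agents gave 1 member, 0 with DESeq2 size factors, upper quartile scaling or no filter, 2 with the replicate block, 2 in the fit of these groups alone and 0 to 1 in the omissions. PI103+PD0325901 against the mean gave 5 members, 3 with upper quartile scaling and 3 to 5 in the omissions. Omissions gave 4 to 7 members for PI103 against control, 3 to 5 for PI103+oxozeaenol against control, 3 to 5 for PI103+oxozeaenol against oxozeaenol and 1 to 2 for oxozeaenol against PD0325901.

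Values near 0 that were not called changed sign (log2). ELOVL6 with oxozeaenol was 0.0130 with upper quartile scaling and -0.0861 to 0.0165 in the omissions, positive without oxozeaenol replicate 4. ACACA was 0.0159 with PI103+oxozeaenol and 0.0902 with PI103+PD0325901 under upper quartile scaling, and -0.120 to 0.0576 and -0.120 to 0.0698 in the omissions, positive without control replicate 3. ACSS2 with PI103 was -0.000864 with no filter and -0.0147 to 0.0676 in the omissions, negative without control or PI103 replicate 2. The cause was not tested. The replicate block changed 4 calls of members, all given above, and no other. Low counts limit FADS1, with at most 11 counts, and FADS2, at most 1.92 CPM.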
